A study of Mus musculus with 10 samples.

Results

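Genes that build and specify the paraventricular hypothalamus (PVH) were followed through every cell cluster of a single-cell RNA-seq series of adult mouse PVH. They are 9 transcription factors listed by symbol, *Sim1*, *Sim2*, *Arnt2*, *Otp*, *Pou3f1*, *Pou3f2*, *Pou3f3*, *Fezf1* and *Nhlh2*, of 48397 genes in the count table, and all 9 symbols were found there. Unique molecular identifiers (UMIs), which count captured mRNA molecules apart from PCR copies, were read in the cells that the authors kept after quality control. These cells lay in 15 deposited clusters on 10 plates of 96 wells. The 12 clusters taken as PVH held 664 cells. Clusters 5, 6 and 11, which the study set aside as non-PVH because they were mainly *Sim1* negative, held 42 cells and served as the contrast.

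All cells came from a single condition, male mice over 7 weeks old from a cross of *Agrp-IRES-Cre* with *Ai9*, in which Cre expressed from the *Agrp* locus switches on tdTomato in AGRP neurons. The methods state that the labelled AGRP axons outlined the PVH for dissection, whereas the labels describe the picked cells as labelled neurons. The plate was the replicate, since the animals on each plate are not given in the labels, and p-values measure only the spread between plates. Plate names start with Q on 4 plates, with AL on 2 and with JM on 4. Cell barcodes were deposited as 4 sets of 96 by plate suffix, so plates with the same number were taken to share a set. The barcodes themselves were not compared between plates.

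Total UMIs per cell ran from 50646 to 1078101 with a median of 128671.5, and cells on Q plates held more UMIs than those on AL and JM plates, with plate medians of 188176 to 283709 against 69514 to 127829. All 5 neuronal markers examined were detected on both sides, at a summed 2394 CPM (UMIs scaled to a total of 1000000) in PVH and 3117 CPM in non-PVH clusters. Astrocyte markers summed to 3.13 CPM in PVH and 0 CPM in non-PVH clusters. Markers of oligodendrocytes and precursors were higher, at 40.5 and 113 CPM, with 159 CPM in cluster 10 and 146 CPM in cluster 6. Microglial markers summed to 1.42 and 2.67 CPM, endothelial and mural ones to 1.63 and 0.501 CPM, and ependymal and tanycyte ones to 15.3 and 0.501 CPM. The 4 markers of AGRP and POMC neurons (*Agrp*, *Npy*, *Pomc* and *Cartpt*) summed to 426 CPM in PVH and 45.1 CPM in non-PVH clusters. They summed to 3024 CPM in cluster 9, where 1 of the 4 was at 0. The sum does not tell which gene carries it, so it does not name the cells of cluster 9 as AGRP or POMC neurons. The 3 GABAergic markers summed to 0 to 456 CPM in the PVH clusters, and to 571 CPM in cluster 5, 940.1 CPM in cluster 6 and 15.5 CPM in cluster 11. The highest PVH value was that of cluster 13, where 2 of the 3 markers were at 0. The paper names *Gad2* as a marker of PVH subgroups and states that PVH clusters lacked *Slc32a1*, its marker of inhibitory neurons. The 3 markers of glutamatergic neurons were at 0 in clusters 5 and 6, reached 992 CPM in cluster 11 and lay between 57.8 and 262 CPM in the PVH clusters.

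In the embryo, the neuroendocrine neurons of the PVH arise under a small network of factors. *Sim1* encodes a bHLH-PAS protein that acts as a dimer with the partner encoded by *Arnt2*, and *Otp* encodes a homeodomain protein that acts in parallel with them. *Pou3f2* (also called Brn2) is a POU factor that acts downstream of this group and is needed for neurons that make oxytocin, vasopressin and corticotropin-releasing hormone. Loss of a *Sim1* copy causes overeating and obesity in mice and people, and *Nhlh2*, a bHLH factor, is likewise tied to body weight. *Fezf1*, a zinc finger factor, is best known from forebrain and olfactory development. *Sim2*, *Pou3f1* and *Pou3f3* are the closest relatives of the core genes.

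Among *Sim1*, *Arnt2*, *Otp* and *Pou3f2*, the share of cells with *Otp* spanned the narrowest range across PVH clusters and the share with *Pou3f2* the widest. At least 1 *Otp* UMI was found in 90.3% to 100% of the cells of each PVH cluster. *Pou3f2* was found in 98.1% to 100% of the cells of clusters 1 to 4 but in 20% of those of cluster 9. *Sim1* ran from 32.0% in cluster 9 to 83.3% in cluster 3, and *Arnt2* from 63.3% in cluster 15 to 100% in cluster 3. *Nhlh2* ran from 18.9% in cluster 2 to 82.9% in cluster 7. *Fezf1* was patchy, from 57.1% of cluster 7 to no cell of clusters 9, 13 and 14, and *Sim2*, *Pou3f1* and *Pou3f3* were found in 11, 5 and 13 of the 664 PVH cells.

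**Figure D1:**
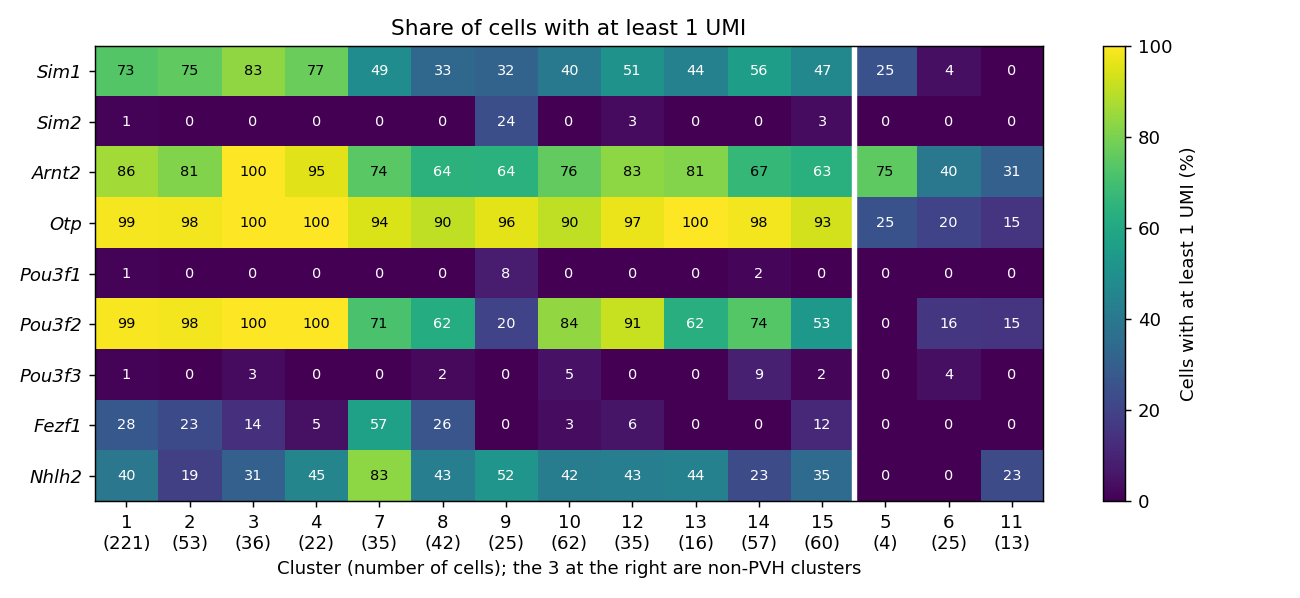
Share of cells, in percent, with at least 1 UMI of each gene (rows) in each cluster (columns, with the number of cells below), the 3 non-PVH clusters standing at the right of the white line. *Otp* is at 90% or above in every PVH column, and the *Pou3f2* row drops to 20% in cluster 9.

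On GRCm38 (GENCODE M21), *Sim1* lies at chr10:50894754-50989152, *Arnt2* at chr7:84246278-84410176, *Otp* at chr13:94875602-94885130 and *Pou3f2* at chr4:22482780-22488366. The others are *Sim2* at chr16:94084931-94127032, *Pou3f1* at chr4:124656807-124660655, *Pou3f3* at chr1:42695768-42703176, *Fezf1* at chr6:23245044-23248362 and *Nhlh2* at chr3:102010076-102015492. Since several of these factors are known to act on each other's genes, their promoters were searched for motifs of the factors' own classes. Windows of 250 bases before to 50 bases after the start were found for 7 of the 9 genes (RefSeq, GRCm38.p6), all but *Sim2* and *Pou3f1*. Of 6 motifs searched on both strands, ACGTG, the core bound by ARNT-type dimers, was in 19.6% of all 32851 promoters and in that of *Pou3f2*. CATNNTAAT, bound by POU3 factors, was in 2.47% of all promoters and in those of *Sim1* (1 site) and *Otp* (2 overlapping sites). These stretches were chosen after the search, and each is shown 5′ to 3′ on the strand of its gene with the match in capitals, which can be on either strand.
*Sim1*: aaacgtcgggtATTATTATGtcgatttccc
*Otp*: ctctaaaggaCATTATAATGcaagaagccc
*Pou3f2*: tgctagcggtatcCACGTaaatcaaagggc
The *Sim1* stretch is chr10:50895543-50895572 on the plus strand, ahead of the start used by the full-length transcript and inside an exon of another annotated *Sim1* transcript. The *Otp* stretch is chr13:94875595-94875624 on the plus strand and spans the annotated 5′ end of the gene, with its match 31 to 22 bases ahead of the RefSeq start. The *Pou3f2* stretch is chr4:22488539-22488568 on the minus strand, with its match 189 to 185 bases ahead of the start. CANNTG, the E-box, was in 72.3% of all promoters and in those of *Sim1*, *Arnt2*, *Otp* and *Nhlh2*. TAATTA, ATGCAAAT and ATGNTAAT were in 5.29%, 1.74% and 2.99% of all promoters and in none of the 7. A match describes the letters of a window and is no measurement of binding.

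The contrast between PVH and non-PVH clusters asks which of these factors were found more in the PVH clusters than in the cells set aside. Those cells came from the same dissection, and clusters 5 and 6 among them carried GABAergic markers. The contrast therefore cannot show that a factor marks the nucleus itself. Both sides were drawn from the transcriptomes of the same cells, so no p here is independent evidence of the split. Within each of the 9 plates with cells on both sides, the share of cells with *Otp* was higher in PVH clusters, by a mean of 80.8 points (SD 22.0, n = 9 plates), at 96.7% against 15.8%. *Pou3f2* was higher by 68.9 points (SD 16.5, n = 9), *Nhlh2* by 36.2 points (SD 10.01, n = 9) and *Fezf1* by 18.0 points (SD 6.92, n = 9), also in 9 of 9 plates each. The exact two-sided permutation test that swaps the sides within plates gave p = 0.00391 for each of these 4 genes, the smallest it can give with 9 plates. *Arnt2* was higher in 8 of 9 plates, by 39.8 points (SD 28.4, exact permutation p = 0.00781), with AL5 the exception. On Q8, AL5, JM5 and JM7 the non-PVH share rests on fewer than 3 cells, yet these plates count as much as the others. With at least 3 cells on both sides, each of these genes was higher in 5 of 5 plates. The differences were 76.8 points for *Otp*, 67.3 for *Pou3f2*, 31.9 for *Nhlh2*, 21.3 for *Fezf1* and 39.2 for *Arnt2*. There the smallest p that the exact permutation test can give is 0.0625.

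The same test was run on the 12828 genes above a floor on the share of cells with a UMI. Of these, 14.6% were higher in PVH clusters at an exact permutation p under 0.05. In every plate 3.81% were higher, as 4 of the 8 factors tested were. *Sim2*, *Pou3f1* and *Pou3f3* lay below that floor, so these shares do not stand for genes as rare as they are. *Sim2* differed by 1.71 points (SD 1.63, n = 9, exact permutation p = 0.03125) and was higher in 6 plates and at 0 on both sides in the other 3. Leaving out any of those 6 plates (Q6, Q7, AL5, JM5, JM7 or JM8) ended its call, at an exact permutation p of 0.0625. *Sim2* was found in only 11 of 664 PVH cells and in 0 of 42 non-PVH cells. At so low a share, few or no positives would be seen among so few non-PVH cells even without a difference. Both p-values follow from the number of plates with a positive PVH cell, so this test cannot decide whether *Sim2* differs. *Pou3f1* differed by 0.588 points (SD 0.699, exact permutation p = 0.125) and *Pou3f3* by 0.192 points (SD 3.57, exact permutation p = 0.938), and neither passed. The share difference was 80.8 points on Q and 80.9 points on AL and JM plates for *Otp*, and 63.3 and 73.4 points for *Pou3f2*. *Sim1* was found in a mean of 59.8% of PVH and 3.17% of non-PVH cells, a description only, since *Sim1* had been used to set these clusters aside.

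**Figure D2:**
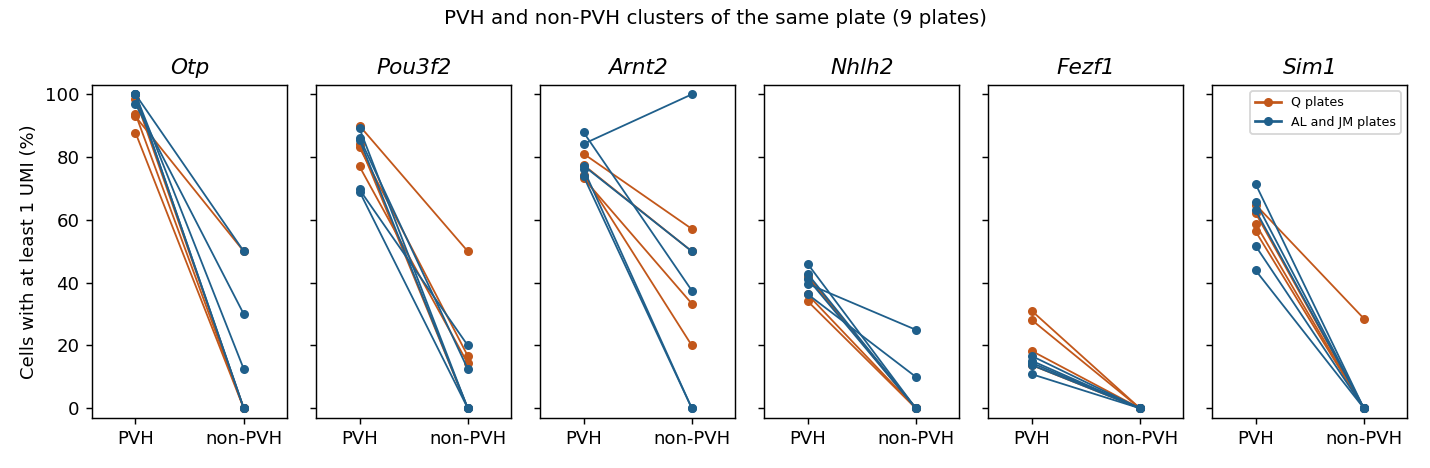
Share of cells with at least 1 UMI (percent, vertical axis) in PVH and in non-PVH clusters of the same plate, each line 1 of 9 plates, coloured by plate prefix. *Otp*, *Pou3f2*, *Nhlh2*, *Fezf1* and *Sim1* fall from PVH to non-PVH in all 9 plates, and *Arnt2* in 8 of 9. On Q8, AL5, JM5 and JM7 the non-PVH side holds fewer than 3 cells.

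Summed UMIs showed the same order of sides with a wider error. On the 5 plates with at least 3 cells of each side (Q5, Q6, Q7, JM6 and JM8), *Pou3f2* stood at 160.3, 193, 193, 184 and 118 CPM in PVH clusters and at 0, 18.2, 0.644, 15.4 and 12.6 CPM in non-PVH clusters. The lowest PVH plate was above the highest non-PVH plate. The mean was 169.8 ± 31.7 CPM against 9.37 ± 8.51 CPM (SD, n = 5), a log2 fold change of 4.79 (SE 0.78), with an edgeR quasi-likelihood adjusted p of 0.0118. It was the only one of 5 factors tested to pass, where 1.04% of the 10996 genes passed and 0.764% passed as higher. Without plate Q7 its adjusted p was 0.0601.

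*Otp* on the same plates read 129.8, 314, 448, 1098 and 980 CPM in PVH clusters and 0, 27.4, 0, 3.42 and 68.4 CPM in non-PVH clusters. These values did not overlap, and PVH was higher in 5 of 5 plates, but the log2 fold change of 5.78 (SE 1.10) did not pass (adjusted p = 0.114). *Nhlh2* was at 35.4 ± 6.45 CPM against 3.13 ± 4.62 CPM (SD, n = 5; adjusted p = 0.169) and *Arnt2* at 105 ± 39.0 CPM against 54.3 ± 30.6 CPM (adjusted p = 0.349).

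*Fezf1* was at 21.1 ± 6.35 CPM (SD, n = 5) in PVH clusters and had no UMI in the 36 non-PVH cells of these plates. With 3 counts over all those cells as the limit that a count of 0 allows, 0.551 CPM, the pooled PVH level of 20.3 CPM was at least 36.8-fold higher, with an adjusted p of 0.132. *Sim1* averaged 64.8 ± 9.45 CPM in PVH and 0.258 ± 0.576 CPM in non-PVH clusters, given without a test. DESeq2 on the same sums passed 4 of the 5 factors, all but *Arnt2*. The share of all genes that passed with DESeq2 was not computed, so this count cannot be read as particular to the factors.

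The UMIs of the PVH factors in non-PVH cells were set beside those of an abundant PVH transcript. *Oxt*, the oxytocin gene, had a UMI in 95.2% of the 42 non-PVH cells, at 288 ± 283 CPM, and in 98.8% of PVH cells, at 31392 ± 18040 CPM (SD, n = 5). *Otp* was detected in 8 of the 42 non-PVH cells, and 4.76% of them had at least 3 *Otp* UMIs, while 94.4% of PVH cells did. *Arnt2* was the exception among the core factors, with 40.5% of non-PVH cells positive (95% interval 25.6% to 56.7%, exact Clopper-Pearson) and 28.6% with at least 3 UMIs. *Arnt2* was at 55.3 ± 40.7 CPM in cluster 6 (n = 5 plates) and at 9.19 ± 6.73 CPM in cluster 11 (n = 2). The part of UMIs that crossed between wells of a plate in these shares was not tested. Median depth was 150672 UMIs in cluster 6 and 84946 in cluster 11, inside the 74688.5 to 253588 of the PVH clusters.

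Among the PVH clusters themselves, 5 of the 6 factors with enough UMIs for a test differed in level. In a quasi-likelihood test of equal level in all PVH clusters with plate as a block, the adjusted p was 5.37e-13 for *Pou3f2*, 1.28e-06 for *Fezf1*, 0.000142 for *Otp*, 0.00160 for *Arnt2* and 0.0292 for *Nhlh2*. *Sim1*, the gene that defines the lineage, did not pass (adjusted p = 0.480). Of all 13082 genes, 21.2% passed this test. The call for *Nhlh2* was lost on leaving out plate Q6, Q7, JM5, JM6 or JM7, with adjusted p-values of 0.0568 to 0.122. These clusters were drawn by the study from the transcriptomes of the same cells, so no adjusted p between clusters is independent evidence of a cluster.

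Each PVH cluster was then set against the remaining PVH cells of the same plates. In 72 such tests of factors, 11 passed, 4 as higher and 7 as lower, where 3.29% of all 130901 tests of genes did. By cluster, the share of genes that passed was 11.9% in cluster 1, 2.95% in 3, 6.08% in 7, 1.25% in 9, 4.46% in 10, 1.4% in 13 and 5.4% in 14. No factor passed in clusters 2, 4, 8, 12 and 15, where 1.26%, 0.67%, 0.0734%, 1.92% and 1.88% of genes did. The 12 comparisons share their reference cells, so they are not independent of each other. For each of the 9 factors, none of the 11 pairs of neighbours in the order of cluster means differed by more than the larger of their SDs over plates.

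The means of *Pou3f2* were highest in clusters 1 to 4, which led in *Oxt* or *Avp* (vasopressin), and in cluster 10, and lowest in cluster 9, which led in *Trh*, the gene of thyrotropin-releasing hormone. Over all PVH clusters, *Trh* was detected in 96 of the 553 cells with *Pou3f2* and in 42 of the 111 without. The low level is thus described for cluster 9 and not for cells with *Trh* as a class. In cluster 9 the plates Q5, Q6, Q7 and JM8 held 1, 13, 0 and 0 *Pou3f2* UMIs, that is 1.81, 10.4, 0 and 0 CPM. The other PVH cells of these plates stood at 164, 205, 208 and 128 CPM, so no value overlapped. The mean was 3.04 ± 4.95 CPM against 176 ± 37.9 CPM (SD, n = 4), a log2 fold change of -6.80 (SE 0.89, adjusted p = 0.000494, where 1.25% of genes passed). In the same cells *Otp* was detected in 96.0% (24 of 25) and did not differ from the other PVH clusters by the test (log2 fold change -0.21, SE 0.26, adjusted p = 0.748). In cluster 9, *Sim1* was at 25.2 ± 22.0 CPM against 66.1 ± 9.74 CPM (adjusted p = 0.324).

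The other calls for *Pou3f2* were smaller. It was lower in cluster 7, at 63.0 ± 35.8 CPM against 200.3 ± 38.2 CPM (SD, n = 8; log2 fold change -1.89, SE 0.29, adjusted p = 0.000195), in 8 of 8 plates. The 8 cluster 7 plates ran from 26.8 to 132 CPM with a median of 55.4 CPM. It was lower in cluster 13, where plates AL5, AL6 and JM6 read 42.9, 125 and 10.4 CPM against 159, 189 and 195 CPM (log2 fold change -2.22, SE 0.52, adjusted p = 0.00752). In cluster 14 the level of 112 ± 75.7 CPM against 188 ± 47.1 CPM passed (log2 fold change -1.05, SE 0.27, adjusted p = 0.0306, lower in 6 of 8 plates), but plates Q7 and AL6 were above their references at 246 and 216 CPM. That call was lost without plate Q5, AL5, JM5, JM6 or JM7, at adjusted p-values of 0.0686 to 0.112. Cluster 1 was higher by a log2 fold change of 0.43 (SE 0.11, adjusted p = 0.0184), at 211 ± 60.8 CPM against 166 ± 39.9 CPM (SD, n = 10), in 8 of 10 plates. Cluster 8 (76.0 ± 54.6 CPM, n = 4, adjusted p = 0.154) and cluster 15 (132 ± 94.3 CPM, n = 8, adjusted p = 0.118) did not pass.

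**Figure D3:**
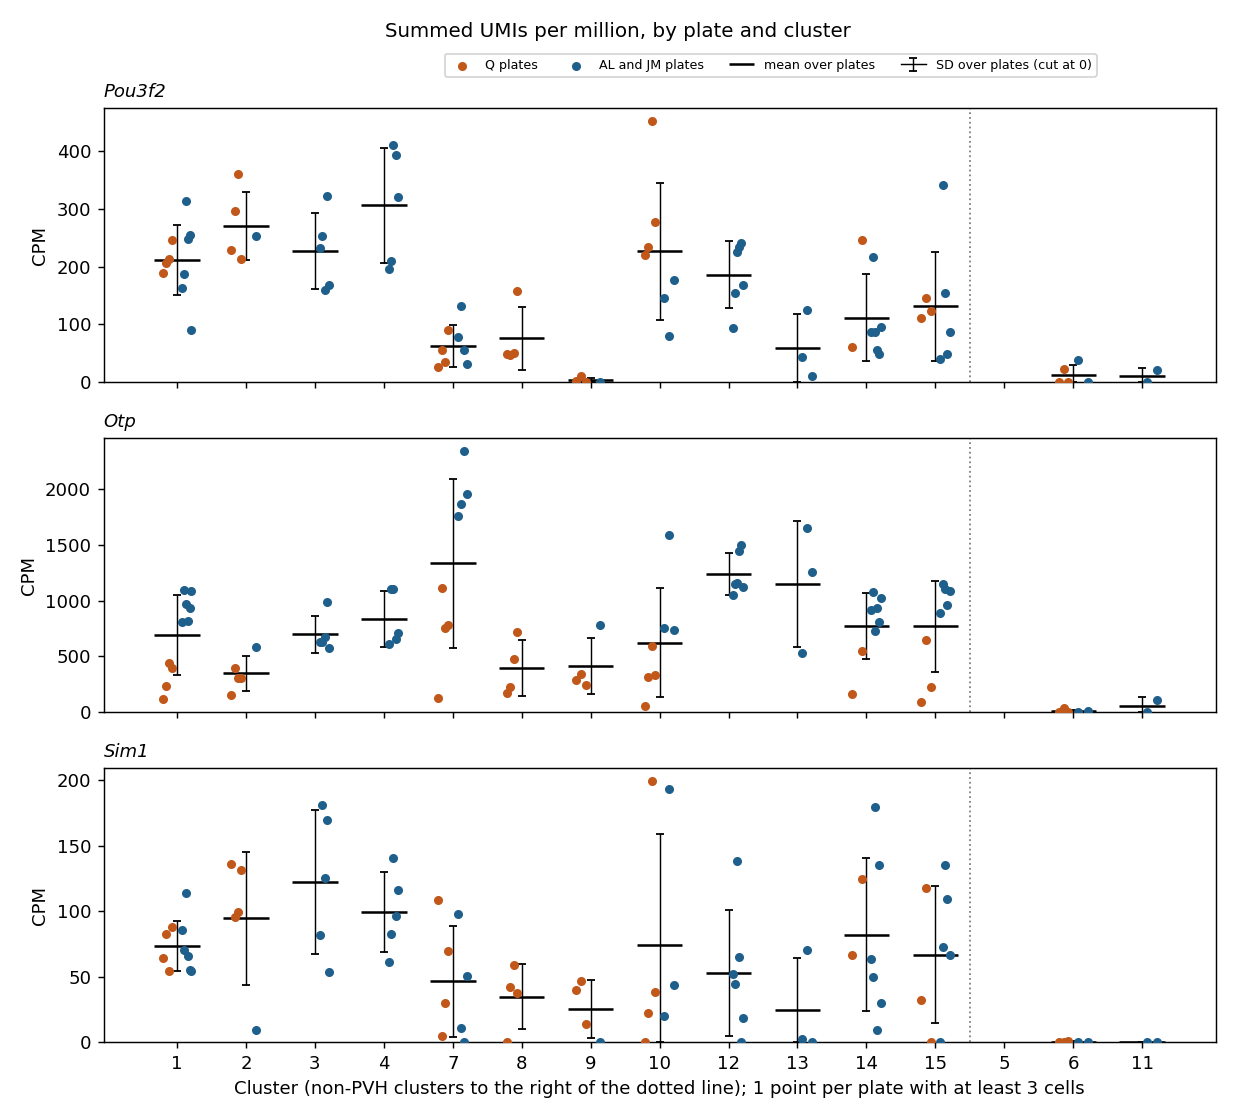
Levels of *Pou3f2*, *Otp* and *Sim1* from summed UMIs (CPM, linear axes) by cluster, 1 point per plate with at least 3 cells, orange for Q plates and blue for AL and JM plates, with black lines for the mean and SD over plates. *Pou3f2* sits near 0 in cluster 9 as in the non-PVH clusters, and the Q points of *Otp* lie below the AL and JM points within each PVH cluster that has both.

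*Otp* levels split by plate prefix, so its levels across clusters are given within a prefix. In cluster 1, the largest cluster and one seen on all 10 plates, the 4 Q plates read 120.1, 234, 438 and 399.9 CPM, and the 6 AL and JM plates ran from 807 to 1092 CPM with no overlap. The means were 298 ± 148 CPM (n = 4) and 951 ± 123 CPM (n = 6), a log2 fold change of -1.47 (SE 0.26, adjusted p = 0.000884). *Otp* was the only one of 6 factors to differ between the prefixes in cluster 1, where 11.1% of 11885 genes did. *Pou3f2* was at 214 ± 23.9 CPM on Q and 209 ± 79.4 CPM on AL and JM plates (adjusted p = 0.575), and *Sim1* at 72.4 ± 15.7 and 74.3 ± 22.7 CPM (adjusted p = 0.750). The share of PVH cells with *Otp* was 93.2% on Q and 99.4% on AL and JM plates, although Q cells were the deeper ones. Library chemistry, sequencing and animals cannot be told apart from the prefix.

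Within prefixes, cluster 7 had the highest mean of *Otp*, at 693 ± 412 CPM on 4 Q plates and 1981 ± 253 CPM on 4 AL and JM plates. On AL and JM plates, clusters 12 and 13 followed at 1239 ± 187 CPM (n = 6) and 1149 ± 569 CPM (n = 3), and cluster 3 had the lowest mean of the clusters on 3 or more such plates, at 699 ± 164 CPM (n = 5). On Q plates, clusters 1, 2, 9, 10, 14 and 15 lay between 290.5 and 353 CPM. With plate as a block, *Otp* was higher in cluster 7 (log2 fold change 0.95, SE 0.15, adjusted p = 0.000345, higher in 7 of 8 plates). In cluster 3 it was lower (log2 fold change -0.64, SE 0.13, adjusted p = 0.0179, lower in 5 of 5 plates), a call that was lost without AL5, AL6, JM6 or JM8, at adjusted p-values of 0.0526 to 0.0867.

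*Sim1* and *Arnt2*, which encode the 2 subunits of the SIM1 dimer, had no call for a single cluster. *Sim1* plate means ran from 24.5 ± 40.1 CPM in cluster 13 (n = 3) to 122 ± 55.0 CPM in cluster 3 (n = 5). *Sim1* was at 0 CPM on at least 1 plate in each of clusters 7, 8, 9, 10, 12, 13 and 15, and on no plate in clusters 1 to 4 and 14. Over all PVH cells, the median total was 149774 UMIs in the 398 cells with *Sim1* and 107326 UMIs in the 266 without, a gap that also mixes clusters of different depth. Within clusters, the cells with *Sim1* had the higher median total in 8 clusters and the lower one in clusters 3, 4, 10 and 13. With every cell thinned to 63046 UMIs, *Sim1* was still found in 55.7% of PVH and 2.86% of non-PVH cells. *Arnt2* ran from 46.7 ± 18.4 CPM in cluster 9 (n = 4) to 204 ± 111 CPM in cluster 3 (n = 5), and its lowest adjusted p was 0.0782, in cluster 14.

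*Nhlh2* and *Fezf1* both had their highest mean in cluster 7, in which *Sst*, the somatostatin gene, was detected in all 35 cells. A UMI of *Sst* was not particular to cluster 7. Over all PVH clusters it was found in 52.8% of cells with *Sim1* and 56.8% of those without. *Fezf1* in cluster 7 ran from 12.96 to 229.6 CPM over 8 plates, with a median of 65.05 CPM, and was above the other PVH cells in every plate. The means were 103.2 ± 78.9 CPM against 14.7 ± 8.24 CPM (SD, n = 8; log2 fold change 2.52, SE 0.61, adjusted p = 0.0122). Without plate JM6 or JM7 its adjusted p was 0.0630 or 0.0570. *Nhlh2* in cluster 7 ran from 45.8 to 239 CPM with a median of 161 CPM, and averaged 142 ± 64.6 CPM against 32.7 ± 6.59 CPM (log2 fold change 1.91, SE 0.37, adjusted p = 0.00242), also above in 8 of 8 plates. With the raised *Otp* and the lowered *Pou3f2*, cluster 7 accounted for 4 of the 11 calls, where 6.08% of genes passed in that cluster. With at least 5 cells per sum in place of 3, none of these 4 calls passed (adjusted p of 0.0630 for *Pou3f2* and 0.352 to 0.380 for the others). Within cluster 7, *Sim1* was detected in 48.6% of cells, at 46.5 ± 42.3 CPM against 82.7 ± 19.5 CPM (adjusted p = 0.182). In cluster 8, *Fezf1* was at 26.1 ± 35.1 CPM and *Nhlh2* at 57.7 ± 31.3 CPM (SD, n = 4), and neither passed there.

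*Fezf1* was absent from the counts of clusters 9, 13 and 14. No UMI was found in the 57 cells of cluster 14, so that a share of cells with a UMI up to 5.26% remains possible (3 counts of the total), whereas 27.6% of cluster 1 cells were positive. On the 8 plates compared, the limit of 3 counts over cluster 14 was 0.412 CPM, and the pooled level of 18.4 CPM in the other PVH cells was at least 44.6-fold higher (adjusted p = 0.00995). Likewise, the other PVH cells were at least 28.9-fold higher than cluster 9 (adjusted p = 0.113) and at least 3.81-fold higher than cluster 13 (adjusted p = 0.376). Cluster 10, which led in *Crh*, was low at 1.59 ± 3.57 CPM against 20.9 ± 7.49 CPM (SD, n = 7; log2 fold change -5.71, SE 1.54, adjusted p = 0.0355), a call that was lost without Q6, Q7, Q8, AL5 or JM6 at adjusted p-values of 0.0783 to 0.0876. *Nhlh2* had no second cluster that passed, with 81.8 ± 56.3 CPM in cluster 10 (n = 7, adjusted p = 0.440) and 15.4 ± 18.1 CPM in cluster 14 (n = 8, adjusted p = 0.0957).

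**Figure D4:**
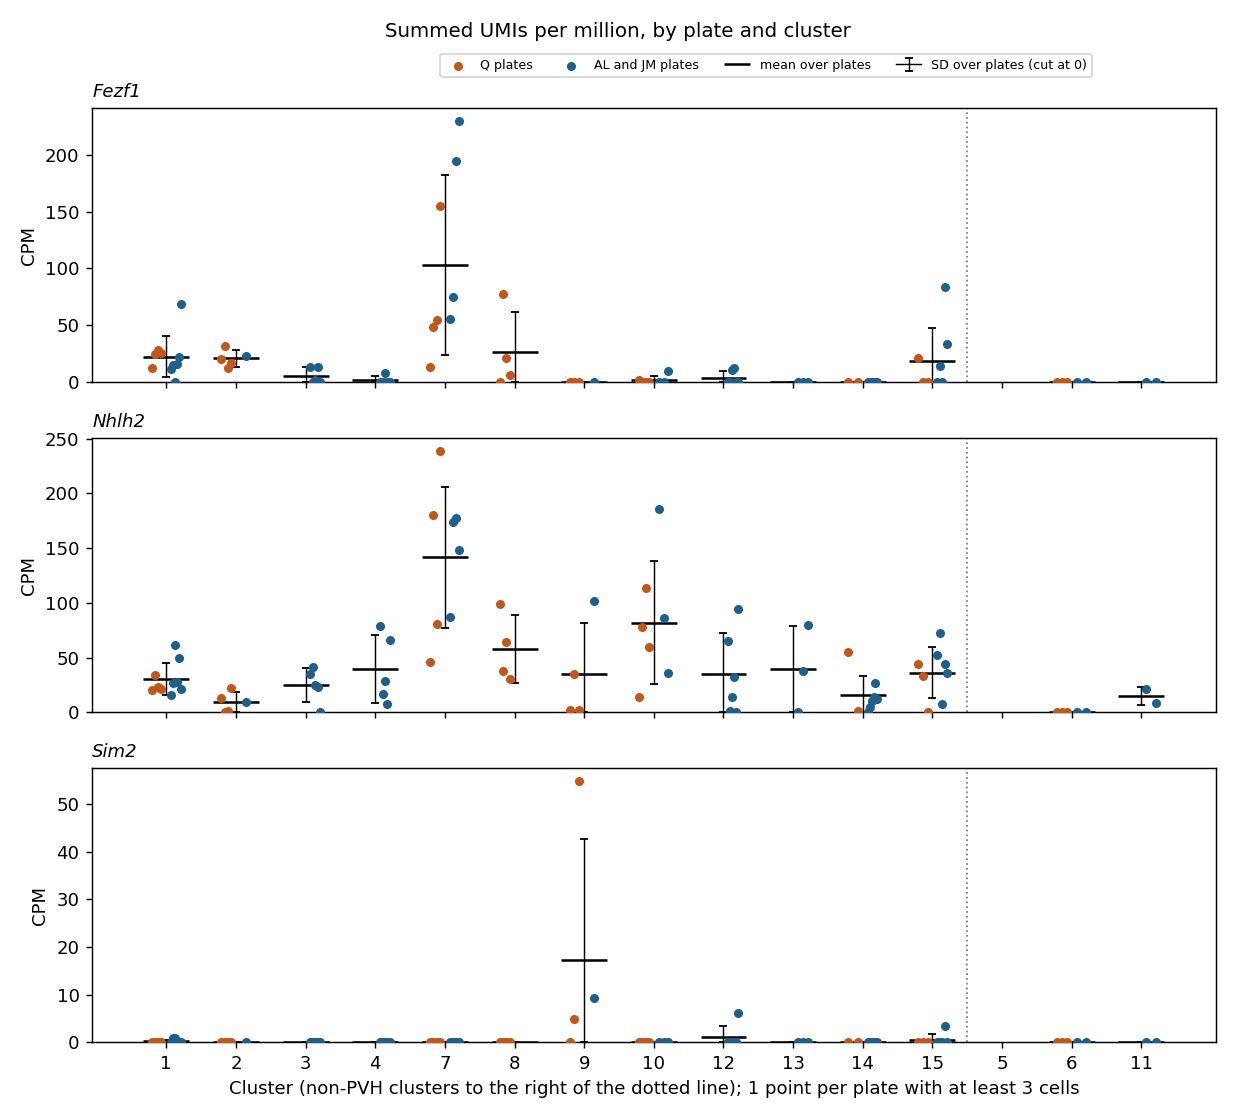
Levels of *Fezf1*, *Nhlh2* and *Sim2* from summed UMIs (CPM, linear axes) by cluster, 1 point per plate with at least 3 cells, with black lines for the mean and SD over plates. *Fezf1* and *Nhlh2* are highest in cluster 7, *Fezf1* lies at 0 on every plate in clusters 9, 13 and 14, and the *Sim2* mean in cluster 9 rests on a Q plate at 54.9 CPM.

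*Sim2*, the paralogue of *Sim1*, was found most often in cluster 9, where *Pou3f2* was lowest. Cluster 9 held 6 positive cells among its 25 (24.0%, 95% interval 9.36% to 45.1%). The other 5 positive cells lay in clusters 1 (2 cells), 12 (1 cell) and 15 (2 cells), which hold 221, 35 and 60 cells. Plates Q5, Q6, Q7 and JM8 held 0, 6, 94 and 5 *Sim2* UMIs in cluster 9. A single cell held 73 of the 107 *Sim2* UMIs of the cluster, so plate Q7 set the mean of 17.2 CPM. Of the 6 *Sim2* cells of cluster 9, *Sim1* was detected in 1 and *Otp* in 6, and of the 19 other cells of that cluster in 7 and 18. *Sim2* did not pass the filter on low counts. Without the filter its adjusted p was 0.282 in cluster 9 (log2 fold change 7.26) and 0.0417 over all PVH clusters.

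The other POU3 genes were also rare. *Pou3f1* was found in 5 cells, 2 of them in cluster 9 with 98 of its 112 UMIs, and *Pou3f3* in 14 cells, 5 of them in cluster 14 with 64 of the 83 UMIs in PVH cells. Neither passed the filter on low counts, and without it the adjusted p over all PVH clusters was 0.0183 for *Pou3f1* and 1 for *Pou3f3*. These values rest on the few positive cells named. In cluster 9, *Pou3f2* was detected in 5 of 25 cells, *Pou3f1* in 2 and *Pou3f3* in 0.

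The core genes were also counted together in each cell. At least 1 UMI of each of *Sim1*, *Arnt2*, *Otp* and *Pou3f2* was found in 44.7% of PVH cells and in 0 of 42 non-PVH cells, where a share up to 7.14% remains possible. Cluster 3 had the highest share of cells with all 4 genes, 83.3%, and cluster 9 the lowest, 8.00% (2 of 25). Cells with none of the 4 numbered 4 of 664 in PVH clusters and 18 of 42 in non-PVH clusters. A gene can be missed in a cell that expresses it, and UMIs that cross between wells can add to it, so these shares can lie below or above those of joint expression. Among PVH cells, *Pou3f2* was detected in 89.2% of the 398 cells with *Sim1* and 74.4% of the 266 without, and *Otp* in 97.2% and 95.5%, with the depth gap between these cells given above.

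**Figure D5:**
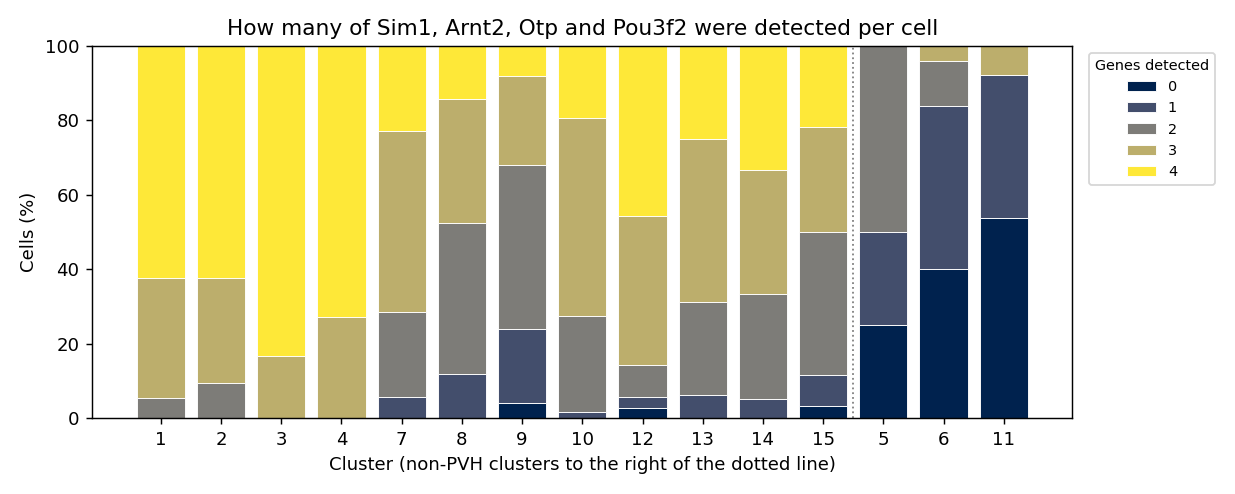
Share of cells (percent, stacked to 100) by how many of *Sim1*, *Arnt2*, *Otp* and *Pou3f2* were detected in the cell, from 0 (dark) to 4 (yellow), for each cluster, with non-PVH clusters at the right of the dotted line. The yellow share is above 60% in clusters 1 to 4, 8% in cluster 9 and absent in clusters 5, 6 and 11.

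Clusters 1 to 4, which led in *Oxt* or *Avp*, were set against the other PVH clusters on all 10 plates. *Pou3f2* averaged 234 ± 59.5 CPM in clusters 1 to 4 and 124 ± 43.9 CPM elsewhere (SD, n = 10; log2 fold change 1.09, SE 0.13, adjusted p = 1.96e-05), higher in 10 of 10 plates. *Sim1* was higher in 8 of 10 plates, at 84.7 ± 17.7 CPM against 61.0 ± 24.4 CPM (log2 fold change 0.67, SE 0.16, adjusted p = 0.0103). *Otp* was lower in 10 of 10 plates, at 655 ± 340 CPM against 856 ± 420.5 CPM (log2 fold change -0.27, SE 0.07, adjusted p = 0.0160).

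The size of the *Otp* difference was smaller than its spread between plates of different prefix, and it did not pass without plate as a block (adjusted p = 0.786). On AL and JM plates alone the adjusted p was 0.0636 for *Sim1* and 0.105 for *Otp*. *Nhlh2* (log2 fold change -0.71, SE 0.27, adjusted p = 0.102, lower in 9 of 10 plates), *Arnt2* (0.35, SE 0.16, adjusted p = 0.183) and *Fezf1* (0.21, SE 0.53, adjusted p = 0.862) did not pass. The 3 factors that passed, of 6 tested, compare with 14% of 11805 genes. *Nhlh2* passed without plate AL6 (log2 fold change -0.92, adjusted p = 0.00777).

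Genes of the same families and of neighbouring territories were counted next to the 9 factors. Of the bHLH-PAS list, which holds *Arnt*, *Clock*, *Hif1a* and other relatives and partners of *Sim1*, none of 12 tested differed between PVH and non-PVH clusters, and the median log2 fold change was 0.86 against 0.55 over all genes tested, of which 1.04% passed in this comparison and 0.764% passed as higher. None of 4 other POU genes differed there either (median 2.10). Of 9 tested factors of other forebrain and hypothalamic territories, 4 were lower in PVH clusters and none higher (median -0.24). These were *Dlx1*, at 0.0695 ± 0.0873 CPM against 171 ± 106 CPM (adjusted p = 2.04e-05), *Dlx5*, *Six6* and *Six3*, factors known from GABAergic forebrain and ventral hypothalamic lineages. *Six6* was at 186 ± 138 CPM in non-PVH clusters and 0.0271 ± 0.0390 CPM in PVH clusters (adjusted p = 4.57e-06). The GABAergic markers moved with these genes, at a summed 26.9 CPM in PVH and 675 CPM in non-PVH clusters, and their part in the result was not tested. Of 11 tested genes of *Sim1*-lineage neurons, 5 were higher in PVH clusters, *Oxt*, *Avp*, *Crh*, *Trh* and *Pcsk1* (median of the list 6.50, and 4.43 with a gene at 0 on a side set at its bound).

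The same lists were counted among PVH clusters. In the 12 comparisons of a cluster with the others, 4 of 136 tests of bHLH-PAS genes passed, 2 of 50 of other POU genes, 6 of 56 of the relatives of *Nhlh2*, *Fezf1* and *Otp*, 13 of 64 of the territory factors and 58 of 116 of the *Sim1*-lineage genes, beside the 3.29% of all genes. The last list holds *Oxt*, *Avp*, *Crh*, *Trh* and *Sst*, which the paper gives as marker genes of these clusters. Its high count follows from that choice and is no result about the lineage. The calls of that list between PVH and non-PVH clusters carry the same limit. Between clusters 1 to 4 and the rest, *Pou2f1*, an octamer-binding factor, was higher at 40.8 ± 13.96 CPM against 19.3 ± 8.45 CPM (adjusted p = 0.00129), and *Fezf2*, the paralogue of *Fezf1*, at 30.7 ± 8.42 CPM against 15.9 ± 12.8 CPM (adjusted p = 0.0325). *Lhx5* and *Zic1*, early patterning factors, were lower, with log2 fold changes of -2.67 (SE 0.50, adjusted p = 0.00115) and -2.83 (SE 0.72, adjusted p = 0.0124). Cluster 9, low in *Pou3f2*, was also low in *Foxp2*, a forkhead factor, at 0.146 ± 0.292 CPM against 70.9 ± 16.2 CPM (SD, n = 4, adjusted p = 0.00848). It was high in *Trh* at 2628 ± 674 CPM and in *Bdnf*, a growth factor gene, at 2555 ± 343 CPM against 68.3 ± 36.9 CPM (adjusted p = 3.93e-06).

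The genes whose levels followed each factor most closely over the 14 clusters of 10 or more cells, non-PVH clusters 6 and 11 among them, are given as a description, since clusters share plates and depth. *Otp* was among the 3 closest genes to *Nhlh2* (Pearson r = 0.893 on log2(CPM + 1), 14 clusters), beside *Rsph4a* (0.913) and *Fdx1* (0.891). *Sim1* was closest to *Enox2* (0.945), *Igsf3* (0.944) and *Ino80d* (0.928), and *Otp* to *Alyref2* (0.917), *Igsf3* (0.913) and *Gls2* (0.900). *Pou3f2* and *Arnt2* shared *Kdelr2* as the closest gene (0.891 and 0.894), followed by *Chil1* (0.884) and *Fign* (0.881) for *Pou3f2*. *Stxbp5* (0.868) was also among the 3 genes closest to *Arnt2*. *Fezf1* was closest to *C130093G08Rik* (0.864), *Galr1* (0.842), a galanin receptor gene, and *Map2k6* (0.827), and *Sim2* to *Defb25* (0.997) and *Gm6665* (0.973). Among the factors, *Sim1* and *Otp* stood at 0.881 and *Sim1* and *Pou3f2* at 0.718, while *Sim2* and *Pou3f2* stood at -0.552. Every r of *Sim2* rests on cluster 9, at a pooled 23.4 CPM, since no other cluster was above 0.735 CPM. In cluster 9 a single cell held 73 of the 107 *Sim2* UMIs. Clusters 6 and 11 held pooled levels of 0.262 and 0 CPM of *Sim1* and 9.95 and 52.9 CPM of *Otp*. Every PVH cluster was higher, at 40.5 CPM or more of *Sim1* and 310 CPM or more of *Otp*. These r values thus include the contrast with clusters set aside as mainly *Sim1* negative. Likeness among PVH clusters alone was not tested, and in clusters 1 to 4 *Sim1* was higher and *Otp* lower.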

How the data were processed

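Single PVH cells were picked by hand, reverse transcribed with barcoded primers and amplified as a pool per plate. The authors deposited raw UMI counts per gene and well, not normalized, with a table of cells that passed quality control and their clusters. The submitters' processing notes name Trimmomatic 0.36, STAR 2.5.3a and the build GRCm38.p5, and the counting of strand is not given in the sources used here. Counts were used as deposited. Wells sharing a plate share amplification and may exchange reads, which can raise low shares. How reads shared by the POU3 paralogues, or by *Arnt2*, *Pou3f1* and *Pou3f3* and overlapping non-coding genes, were assigned is likewise not given.

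Detection means 1 UMI or more in a cell, and intervals are exact Clopper-Pearson intervals at 95% that cover counting error only. Levels are UMIs summed over at least 3 cells of a plate and cluster, scaled to 1000000 UMIs (CPM). Tests used edgeR 4.0.16 (TMM, filterByExpr, robust quasi-likelihood F test, plate as a block) under R 4.3.3 with Benjamini-Hochberg adjustment over all genes tested and a threshold of 0.05. Shares were compared with exact two-sided permutation tests that swap sides within plates. Other settings were DESeq2 1.42.0, other normalization and filters, no block, at least 5 cells per sum, thinning to 63046 UMIs (71 cells left out), single prefixes and leaving out each plate. Replicate numbers name plates, and the same plate on both sides of a comparison is the pair. The scripts were tested on simulated data and used Python 3.11.15 with numpy 2.4.6, pandas 2.3.3, scipy 1.17.1 and matplotlib 3.10.9.

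The 9 factors and all lists were chosen with earlier results of these data known. From each list at most 6 called genes were named, by size of fold change, and for likeness the 3 genes with the highest Pearson r. Some genes that these rules select are not reported here. *Oxt* in non-PVH cells, and *Sst*, *Trh* and *Crh* as leading genes of clusters, were named after their values were seen. *Sim2*, *Pou3f1* and *Pou3f3* did not pass the filter in the PVH comparisons. Gene positions come from GENCODE M21 on GRCm38. Doublets were not called. The 254 wells outside the cell table enter no comparison.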

Additional observations from a re-analysis of the deposited data

Results flagged for a closer look

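In 7 of the 61 gene and cluster groups of 4 to 10 plates, 1 plate stood far from the others (Dixon's test at 95%), and chance alone marks about 1 group in 20. *Sim2* in cluster 9 was at 54.9 CPM on plate Q7, and the next of 4 plates was at 9.21 CPM. *Arnt2* in cluster 1 was at 210.5 CPM on plate JM6, against 108 CPM on the next of 10 plates. *Otp* was at 985 CPM on plate JM7 in cluster 3 (the next of 5 plates at 678 CPM) and at 34.5 CPM on plate Q6 in the non-PVH cluster 6 (the next of 5 at 7.96 CPM). *Pou3f2* was at 158 CPM on plate Q8 in cluster 8 (the next of 4 at 50.0 CPM) and at 342 CPM on plate JM5 in cluster 15 (the next of 8 at 154 CPM). *Fezf1* in cluster 1 was at 68.4 CPM on plate JM8, against 28.7 CPM on the next of 10 plates.

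The 254 wells outside the cell table, with a median of 29122 UMIs (0 to 312891), also held UMIs of the factors, above the share of 1.18% that a count of 0 allows. *Otp* was found in 41.7% of these wells, *Pou3f2* in 29.5%, *Arnt2* in 24.0%, *Sim1* in 14.6%, *Nhlh2* in 12.99% and *Fezf1* in 1.97%. No test was made on these wells.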

How the results depend on the processing

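Counts of factors called moved by over 1.5 times under these settings. The share of all genes that passed was computed for the main setting alone, so the other counts have no such share beside them. Between PVH and non-PVH clusters, 1 factor passed with edgeR, 4 with DESeq2, 3 with no plate block, 2 in thinned cells and 0 to 1 on leaving out a plate (0 without Q7). Over all PVH clusters, 5 passed, and 3 with at least 5 cells per sum or on AL and JM plates alone. For clusters 1 to 4, 3 passed, and 1 with no plate block or on AL and JM plates alone. Over single clusters, 11 passed, 21 with DESeq2, 7 with no plate block, 4 with at least 5 cells and 6 to 10 on leaving out a plate (6 without JM6, 7 without AL5). By share of cells, 6 factors passed, among them *Sim2*, for which this test cannot decide. On Q plates alone, on AL and JM plates alone or with at least 3 cells on both sides, 0 passed. The smallest exact permutation p of these designs is 0.125, 0.0625 and 0.0625. Shares above 40% numbered 53, and 29 when 10 UMIs were required. Without the replicate block, these calls were lost at an edgeR adjusted p of 0.0501 (*Sim1*, clusters 1 to 4), 0.786 (*Otp*, clusters 1 to 4), 0.161 (*Pou3f2*, cluster 1), 0.147 (cluster 13) and 0.149 (cluster 14), 0.268 (*Otp*, cluster 7), 0.0585 (*Fezf1*, cluster 10) and 0.0523 (*Otp*, all PVH clusters), while *Otp* (0.0339) and *Fezf1* (0.0237) passed between PVH and non-PVH clusters. None of the differences that turned sign had passed. For *Fezf1* in clusters 1 to 4 the log2 fold change was -0.0358 with no block, -0.134 on AL and JM plates and -0.0771 to 0.491 on leaving out a plate. Between prefixes, leaving out a plate gave -0.0354 to 1.02 for *Fezf1* and -0.397 to 0.0324 for *Nhlh2*. The *Pou3f3* share difference was -0.999 points on AL and JM plates, -0.852 with at least 3 cells on both sides and -0.312 to 1.28 on leaving out a plate. The cause of these changes was not tested. AL and JM plates alone could not be fitted for PVH against non-PVH or for clusters 2, 8 and 9, nor thinned cells for 1 cluster. Few non-PVH cells and 3 to 5 plates in several comparisons limit what could pass.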
